A study of Mus musculus with 15 samples.

Results

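The genes for the proteins of the mitochondrial ribosome were followed in mouse cells with more Zscan4 and in mouse embryos with less of it. A gene belonged to the set when its symbol was Mrpl (large subunit) or Mrps (small subunit), followed by a number and at most 1 letter a, b or c. This gave 77 of the 51627 genes in the stem cell table, 48 of the large and 29 of the small subunit. It gave 78 of the 53564 genes in the embryo table, 49 of the large and 29 of the small subunit. Mrpl10 was in the embryo table alone and is not analysed here in stem cells. All 77 and all 78 members passed the filter on low values. The 15 RNA-Seq libraries fell into 4 groups. The first comparison set 2 libraries of J1 mouse embryonic stem cells (ESCs) labelled Zscan4 OE, for overexpression, against 2 libraries of wild type J1 ESCs. J1 is an established line, grown here without feeder cells, and all 4 libraries carry the passage label PN+8. The second comparison set 6 libraries of 2-cell embryos labelled Zscan4 RNAi against 5 libraries of wild type 2-cell embryos. The vector and promoter of the overexpression, the RNAi reagent, the mouse strain, the age of the embryos in hours and the number pooled per library are left unstated by the labels. Nothing in the labels says that replicates came from separate cultures or embryo pools, so a p-value here rests on library-to-library spread that may be technical.

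The mitochondrial ribosome translates the few messenger RNAs of the mitochondrial genome, which encode subunits of the oxidative phosphorylation complexes. Its ribosomal RNAs are transcribed from mitochondrial DNA, whereas all of its proteins come from nuclear genes and are imported from the cytosol. In the first cleavage stages the embryo lives on mitochondria and messenger RNAs laid down in the oocyte, while its own genome is being switched on. Subunits are given here by symbol, although the mouse genes Mrps18a and Mrps30 keep a small-subunit name for proteins that sit in the mammalian large subunit.

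Values are normalised reads, that is, reads of a gene divided by the authors' size factor of the library. Depth was 21820093 to 26555027 reads assigned to genes in ESC libraries and 695524 to 1432566 in embryo libraries, where 1 read was worth 0.687 to 1.39 normalised reads. Members drew 109564 and 132486 reads in OE libraries and 91981 and 92899 in control ESC libraries. In embryos they drew 1602 to 3704 reads in RNAi libraries and 2089 to 4628 in control libraries, so low members there move in coarse steps. The summed Zscan4 genes had 19727 ± 393 normalised reads in OE libraries and 182 ± 41.8 in control ESCs (SD, n = 2 each), 108.4-fold higher. An exact two-sided permutation test gave p = 0.333, the smallest that 2 against 2 libraries allow. In embryos the sum was 229.5 ± 142 in RNAi libraries (SD, n = 6) and 734 ± 272 in controls (SD, n = 5), with overlapping ranges of 13.9 to 383 in RNAi libraries and 345 to 1064 in controls (exact two-sided permutation p = 0.013). The OE libraries differed far more from each other than the control ESC libraries did, with a chi-square per degree of freedom of 127.7 against 2.69. Of 8 ESC markers 1 rose and 0 fell in OE cells, and 7 of the 10 tested 2-cell markers rose there, 3 of which are Zscan4 genes. In embryos the summed 2-cell markers, which include Zscan4 genes, the target of the RNAi, had 568 to 1338 normalised reads in RNAi libraries. In controls they had 1408 to 3553. The 9 cumulus markers, of which 2 passed the filter on low values, summed to 3.47 to 26.2 in RNAi libraries and 21.0 to 63.4 in controls, with Has2, Inha, Amh and Inhba at 0 in all of them. The part of these marker levels in the members' values was not tested.

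RefSeq promoters, from 250 bases before to 50 bases after the start of each gene (build GRCm38.p6), were found for 69 members. The letters CCGGAAG, the core bound by ETS-family factors such as GABPA, stood on either strand in 26 of 69 member promoters (37.7%), against 12.9% of 17492 protein-coding genes. From 100 bases before the start onwards, 33.3% of members and 9.98% of protein-coding genes held it. AAGATGGC, letters of the YY1 motif, was in 12 of 69 (17.4%), against 3.57% of protein-coding genes. The full palindrome of NRF1, a regulator of nuclear genes for mitochondria, was in 3 (4.35%) against 1.47%. The shorter GCATGCGC, searched after the sequences had been seen and contained in that palindrome, was in 8 (11.6%) against 3.94%. The E-box CACGTG, bound by MYC-family factors, was in 5 (7.25%) against 8.91%, CTTTCC in 21 (30.4%) against 28.8%, and TGCACAC, a core of the ZSCAN4 motif, in 1 (1.45%) against 4.53%. The median GC content was 58.7% in members' promoters and 56.3% in those of protein-coding genes, and these shares were not tested against base composition. A match is a description of letters and not of a bound site. Of members with a promoter, CCGGAAG was in 3 of the 6 that rose in OE cells, in 0 of the 1 that fell and in 23 of 61 without a call there. It was in 2 of the 3 that rose in RNAi embryos, in 2 of the 9 that fell and in 22 of 57 without a call there.

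The promoters of 7 members with changed levels are shown from 150 bases before the start to 30 bases from it, 5′ to 3′ along the gene, with the matched letters in capitals. Mrpl3 (chr9:105053118-105053297, plus strand) and Mrpl34 (chr8:71464776-71464955, plus strand) hold CCGGAAG, Mrpl10 (chr11:97041432-97041611, plus strand) the shorter NRF1 form, Mrps7 (chr11:115603990-115604169, plus strand) AAGATGGC and the reverse complement of CTTTCC, and Mrpl20 (chr4:155802728-155802907, plus strand) CACGTG. Mrpl3 and Mrpl20 were called in both comparisons, Mrpl10 had the largest called rise and Mrpl34 the largest called fall in RNAi embryos, and Mrps7 carries the YY1 letters. Mrps18b (chr17:35916411-35916590, minus strand), the largest called rise in OE cells, and Mrps31 (chr8:22411190-22411369, plus strand), the called fall there, hold none of the searched letters whole within these bases. Beyond them, Mrps18b has CCGGAAG on the reverse strand at bases 43 to 49 from the start, and the shorter NRF1 form at bases 28 to 35 and 223 bases before the start.
Mrpl3: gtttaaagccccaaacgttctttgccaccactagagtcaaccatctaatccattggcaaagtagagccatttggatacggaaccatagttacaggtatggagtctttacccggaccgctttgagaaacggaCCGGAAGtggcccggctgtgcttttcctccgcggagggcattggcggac
Mrpl34: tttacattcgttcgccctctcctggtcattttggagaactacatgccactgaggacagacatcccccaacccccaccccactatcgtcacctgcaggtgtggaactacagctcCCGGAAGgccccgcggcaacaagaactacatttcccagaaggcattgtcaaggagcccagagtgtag
Mrpl10: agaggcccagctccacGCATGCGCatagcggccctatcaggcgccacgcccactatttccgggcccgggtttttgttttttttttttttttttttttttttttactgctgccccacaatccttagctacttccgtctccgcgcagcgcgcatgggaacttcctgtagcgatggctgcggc
Mrps7: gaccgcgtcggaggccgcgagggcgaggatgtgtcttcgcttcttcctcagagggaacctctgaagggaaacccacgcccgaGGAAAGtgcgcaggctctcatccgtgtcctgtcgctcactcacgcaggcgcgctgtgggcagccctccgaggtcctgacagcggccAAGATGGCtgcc
Mrpl20: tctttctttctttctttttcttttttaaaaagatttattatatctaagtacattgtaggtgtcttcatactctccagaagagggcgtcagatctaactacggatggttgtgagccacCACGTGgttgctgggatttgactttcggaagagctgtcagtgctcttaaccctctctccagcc
Mrps18b: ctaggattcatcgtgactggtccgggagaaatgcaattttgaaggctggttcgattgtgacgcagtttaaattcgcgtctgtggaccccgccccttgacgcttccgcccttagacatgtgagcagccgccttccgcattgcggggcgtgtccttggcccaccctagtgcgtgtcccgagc
Mrps31: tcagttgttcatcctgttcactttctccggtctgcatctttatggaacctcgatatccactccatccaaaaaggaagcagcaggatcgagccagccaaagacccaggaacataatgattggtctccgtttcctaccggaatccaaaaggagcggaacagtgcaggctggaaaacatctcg

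The first comparison asks what happens to these genes when ESCs carry more Zscan4. Most members had higher values in OE cells, with a median log2 fold change of 0.53, against −0.02 over the 20888 genes tested, but few of them passed the test. With limma on log2(value + 1) and an adjusted p under 0.05 over all genes tested, 7 of 77 members rose (6 large, 1 small subunit), where 11.7% of all genes tested rose. Of the 77, 1 fell, the small-subunit gene Mrps31, where 11.4% of all genes fell. The called shares in this fit, 9.09% and 1.30% of members, are below the background. For rises the same held with quantile normalisation and without trend, but not with DESeq2, voom weights or a replicate block. Their direction was less even: 70 of 77 members had a log2 fold change above 0, against 49.3% of all genes tested. Both OE libraries lay above both controls for 48 of 77 members, against 34.2% of all genes, and below both controls for 1 of 77, against 34.6%. Bulk RNA was measured, so fewer cells of a type and less RNA per cell cannot be told apart.

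Among large-subunit genes, Mrpl46 had 934 and 1568 normalised reads in OE libraries, against 429 and 408 in control ESCs. Mrpl20, homologous to a bacterial protein needed early in large-subunit assembly, had 1640.0 and 2467 in OE libraries, against 729 and 692 in controls. The groups did not overlap for either gene. Their log2 fold changes were 1.53 (SE 0.30, limma adjusted p = 0.0343) and 1.50 (SE 0.25, adjusted p = 0.0264). Mrpl46, on chromosome 7 (78775236 to 78783531, minus strand, mm10), overlaps exons of the small-subunit gene Mrps11 on the other strand, and the strand setting of the counting is not given in the sources used here. Mrpl17, homologous to a protein near the exit of the bacterial peptide tunnel, had 2430.4 and 4034 in OE libraries, against 1209.6 and 1177 in controls (log2 fold change 1.39, SE 0.29, adjusted p = 0.0377).

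Mrpl3, which reaches towards the catalytic centre of the large subunit, had 1408 and 1922 normalised reads in OE libraries, against 780.0 and 726 in controls (log2 fold change 1.13, SE 0.22, adjusted p = 0.0337). Mrpl37, a protein found in mitochondrial but not in bacterial ribosomes, had 2042 and 3264 in OE libraries, against 1109.6 and 1061 in controls (1.25, SE 0.27, adjusted p = 0.042). Mrpl19, a homologue of a bacterial protein at the interface of the subunits, had 1193 and 1264 in OE libraries, against 675 and 667 in controls (0.87, SE 0.16, adjusted p = 0.0303). For all 3 genes both OE libraries were above both controls, and of the 8 called members the OE libraries differed least for Mrpl19. Mrpl3 lies on chromosome 9 (105053239 to 105079888, plus strand) and overlaps exons of Gm38077 on its own strand and of Gm47106 on the other. Mrpl19, on chromosome 6 (81957851 to 81965958, minus strand), overlaps exons of Gcfc2 on the other strand.

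In the small subunit Mrps18b rose, 1 of 3 mammalian relatives of a bacterial small-subunit protein. It had 2489 and 4362 normalised reads in OE libraries, against 989 and 944 in controls, a log2 fold change of 1.77 (SE 0.31, adjusted p = 0.0285). It lies on chromosome 17 (35910379 to 35916389, minus strand), overlaps exons of Gm16279 on the other strand, and shares 14.6% of its 50-base stretches with other genes. Its relatives gave no call. Mrps18c, the family member in the core of the small subunit, had 577 and 987 in OE libraries, against 351 and 331 in controls (1.14, adjusted p = 0.0665). Mrps18a had 487 and 843 in OE libraries, against 488 and 555 in controls, which overlap (0.30, adjusted p = 0.53). Mrps31, a protein specific to the mitochondrial ribosome on chromosome 8 (22411361 to 22429665, plus strand), fell. It had 764 and 1000.2 normalised reads in OE libraries, against 1824 and 1797 in controls, without overlap (log2 fold change −1.05, SE 0.20, adjusted p = 0.0328). The members just outside the threshold were Mrps34 (1.29, adjusted p = 0.0521), Mrps11 (1.31, adjusted p = 0.0573) and Mrps2 (0.62, adjusted p = 0.0573), and those just inside were Mrpl46, Mrpl17 and Mrpl37.

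**Figure D1:**
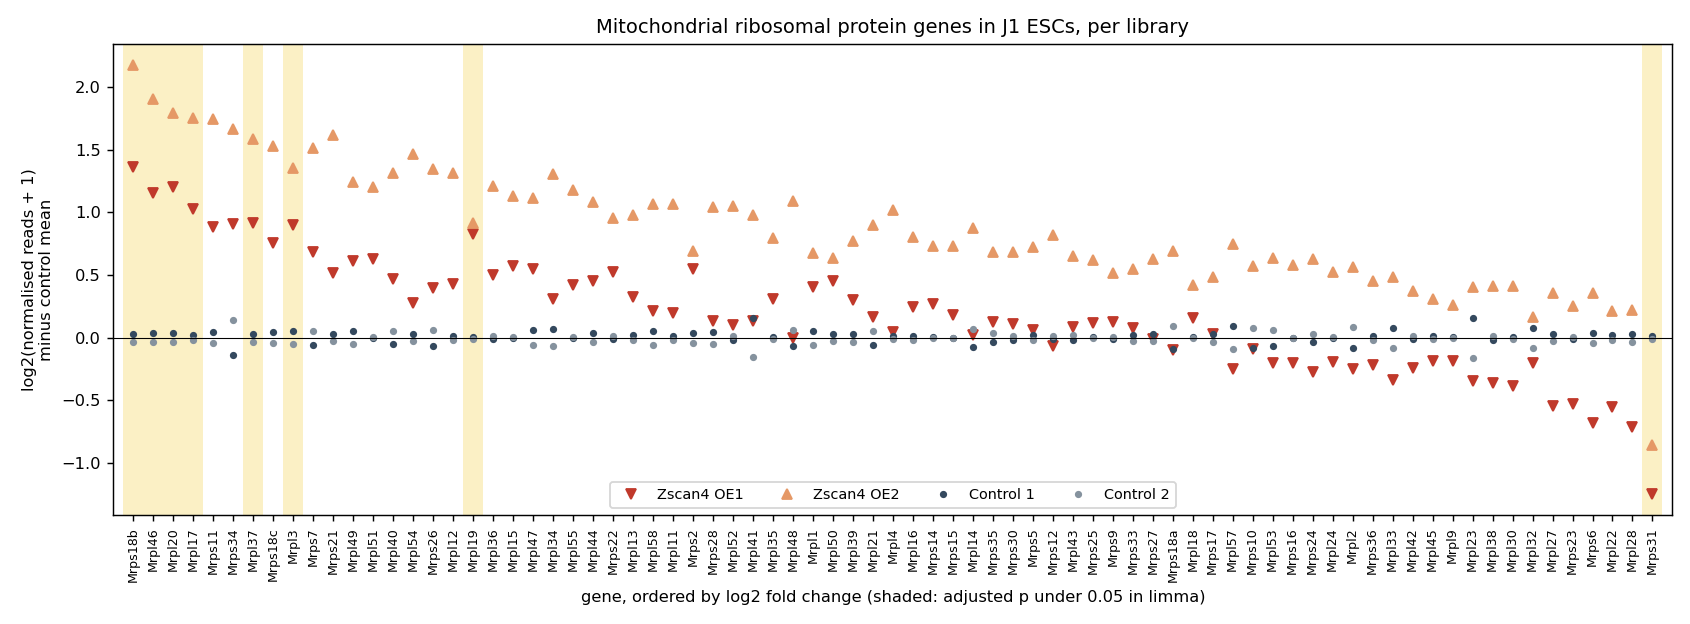
Log2(normalised reads + 1) of each of the 77 members in each ESC library, minus the mean of the 2 control libraries, with genes ordered by log2 fold change and the 8 called members shaded. The OE2 points lie above the OE1 points for all 77 members, and the 2 control libraries lie close to 0.

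The OE libraries were not alike. OE2 was above OE1 for 77 of 77 members, by a median of 0.73 on the log2 scale, while over all genes tested OE2 was the higher for 50.6%. Against the control mean, the median member was 0.13 higher in OE1, with 51 of 77 above it, and 0.77 higher in OE2, with 76 of 77 above it. The median coefficient of variation of a member was 35.0% between OE libraries and 2.71% between controls. The genes of the cytosolic ribosome differed between the OE libraries in the same direction: OE2 exceeded OE1 in 78 of 78, by a median of 0.87. Their median difference from the control mean was −0.39 in OE1 and 0.45 in OE2. Limma called 0 of these 78, with 3 at an unadjusted p under 0.05, and DESeq2 called 1. The mean log2 level of members was 10.04 and 10.73 in OE libraries and 9.87 and 9.85 in controls. Members made up 0.413% to 0.607% of normalised reads in OE libraries, and 0.355% to 0.356% in controls. The part of the difference between OE libraries in the rise was not tested.

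The size of the rise and its calls rest on single libraries. Without OE1 the median log2 fold change of members was 0.77, against −0.0055 over all genes tested. Without OE2 it was 0.13, against 0.02 over all genes tested. Without control 1 or control 2 no gene of the 20888 passed, though 3617 and 3646 had an unadjusted p under 0.05 in limma. With the spread taken from the OE libraries alone, 0 members passed in either direction, and 4 had an unadjusted p under 0.05.

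Several members with known roles were without a call. Mrps12, which helps to form the decoding centre, had 499.6 and 925 normalised reads in OE libraries, against 519 and 527 in controls. Mrpl12, of the stalk that contacts translation factors, had 2817 and 5231 in OE libraries, against 2119 and 2076 in controls. Mrps5, homologous to a bacterial protein at the entry of the messenger RNA, had 3561 and 5641 in OE libraries, against 3459 and 3366 in controls. The groups overlapped for Mrps12 and not for Mrpl12 and Mrps5, and the log2 fold changes were 0.38 (adjusted p = 0.458), 0.87 (adjusted p = 0.129) and 0.39 (adjusted p = 0.334). Mrpl44, which has a fold related to ribonuclease III, had 1746 and 2704 in OE libraries, against 1312 and 1245 in controls (0.77, adjusted p = 0.103). Mrpl58, a peptidyl-tRNA hydrolase that became a ribosomal protein, had 709 and 1286 in OE libraries, against 635 and 589 in controls (0.64, adjusted p = 0.223). Both OE libraries were above both controls for these genes too. Mrps22, variants of which cause mitochondrial disease in humans, had 855 and 1153 in OE libraries, against 589 and 598 in controls (0.74, adjusted p = 0.0747). Mrpl28 had 1093 and 2089 in OE libraries, against 1829.6 and 1749 in controls, and the groups overlap (−0.24, adjusted p = 0.641).

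Members on chromosome 11 had lower log2 fold changes. The median of the 10 members there was 0.12, against 0.53 for the 67 on other chromosomes, a difference that was not tested. Of these 10 members 0 were called, where 94 of the 1537 genes tested on chromosome 11 were called higher and 353 lower. Of the 67 members elsewhere 7 were called higher and 1 lower, where 2359 and 2037 of 19351 genes were. Over all genes tested, the 1537 on chromosome 11 had a median of −0.49 and the 19351 on other chromosomes 0.02. The part of this difference in the members' values was not tested.

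The second comparison asks what happens to the same genes in 2-cell embryos with less Zscan4. Here 10 of 78 members fell and 3 rose in RNAi embryos, where 12% of the 16417 genes tested fell and 6.13% rose. These shares, 12.8% and 3.85% of members, are near or below the background. All 3 that rose and 8 of the 10 that fell belong to the large subunit, which holds 49 of the 78 members. At an unadjusted p under 0.05 in limma were 17 of 49 large-subunit and 12 of 29 small-subunit members, against 33.1% of all genes. The median log2 fold change of members was −0.19, against −0.03 over all genes tested, and 35 of 78 members were above 0, against 49.1% of all genes. RNAi libraries lay wholly below controls for 2 members, where 4.28% of all genes did, and wholly above for 0, where 3.05% did.

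The largest fall was in Mrpl34, a homologue of a very small bacterial ribosomal protein, on chromosome 8 (71464959 to 71465747, plus strand). Its lowest, median and highest RNAi values were 5.21, 20.2 and 59.5 normalised reads, against 54.5, 242, 150.3, 194 and 74.3 in the 5 controls. The highest 2 RNAi values were above the lowest control. The log2 fold change was −2.62 (SE 0.57, limma adjusted p = 0.00568). Mrps6, homologous to a protein of the bacterial small-subunit platform, had 2.61, 12.2 and 14.4 as lowest, median and highest RNAi values, against 64.6, 88.5, 50.1, 125 and 18.6 in controls, with no overlap. Its log2 fold change was −2.57 (SE 0.52, adjusted p = 0.0043). Mrps6 (chromosome 16, 92058270 to 92112227, plus strand) shares exon positions with Slc5a3, which encodes a myo-inositol transporter, on the same strand, so its value is uncertain.

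Mrpl12, the stalk protein, also did not overlap between groups, with RNAi values of 2.60, 21.5 and 29.8 (lowest, median, highest), against 88.9, 106, 76.5, 85.5 and 30.3 in controls. Its log2 fold change was −2.31 (SE 0.55, adjusted p = 0.00888), and it overlaps exons of Gm16755 on the other strand. Mrpl41, found in mitochondrial but not bacterial ribosomes, had RNAi values of 0, 14.6 and 71.4, against 65.4, 96.6, 68.2, 67.9 and 35.2 in controls. The highest RNAi library lay above 4 of the 5 controls (log2 fold change −2.37, SE 0.73, adjusted p = 0.0293). Mrpl20, called higher in OE cells, fell in RNAi embryos, with values of 1.30, 5.52 and 32.5, against 34.4, 66.4, 48.7, 43.3 and 10.8 in controls. Of the controls, control 5 alone lay inside the RNAi range (log2 fold change −2.09, SE 0.67, adjusted p = 0.0363).

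The other members that fell did so by smaller folds on the log2 scale. Mrpl28, which has a bacterial homologue, had RNAi values of 3.47, 13.6 and 26.8, against 30.2, 38.4, 91.8, 67.9 and 12.7 in controls (−1.65, SE 0.55, adjusted p = 0.0428). Mrpl51, specific to mitochondrial ribosomes, had 15.6, 52.2 and 93.8 in RNAi embryos, against 93.1, 169, 121, 166 and 96.8 in controls (−1.48, SE 0.43, adjusted p = 0.0221). Mrpl4, homologous to a protein that lines the bacterial peptide tunnel, had 28.7, 67.9 and 79.8 in RNAi embryos, against 141, 163, 188, 214 and 68.4 in controls (−1.40, SE 0.37, adjusted p = 0.015). In each of the 3 a single control library lay inside the RNAi range. Mrps7, homologous to a bacterial protein that binds rRNA in the head of the small subunit, had 22.2, 71.2 and 114 in RNAi embryos, against 215, 189, 153, 173 and 111 in controls (−1.38, SE 0.38, adjusted p = 0.0187). Mrpl45, at the exit of the peptide tunnel, is named after its values were seen and had 10.4, 28.9 and 55.7 in RNAi embryos, against 66.2, 69.3, 68.2, 72.6 and 47.9 in controls (−1.28, SE 0.41, adjusted p = 0.0358). In both, the lowest control, control 5, was the one inside the RNAi range. Mrps7 overlaps exons of Gga3 and Mif4gd on the other strand, and Mrpl51 overlaps Mir3098.

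Among the 3 members that rose, Mrpl10, the protein that anchors the stalk with Mrpl12, had the largest log2 fold change. Its RNAi values were 34.4, 117 and 275 (lowest, median, highest), against 26.0, 43.5, 15.3, 30.4 and 81.1 in controls (log2 fold change 1.68, SE 0.47, adjusted p = 0.0189). Mrpl3 had RNAi values of 52.3, 80.3 and 112, against 13.4, 25.8, 26.4, 53.9 and 36.2 in controls (1.40, SE 0.38, adjusted p = 0.016). Mrpl48, specific to mitochondrial ribosomes, had 182, 240.1 and 474, against 121, 81.1, 125, 89.0 and 192 in controls (1.19, SE 0.31, adjusted p = 0.013). The groups overlapped in each, through controls 2 and 5 for Mrpl10, control 4 for Mrpl3 and control 5 for Mrpl48. Mrpl10 lies on chromosome 11 (97041560 to 97049213, plus strand) and Mrpl48 on chromosome 7 (100545751 to 100608301, minus strand), and they overlap exons of Gm11574 and Rab6a on the other strand. The members just outside the threshold were Mrpl53 (1.29, adjusted p = 0.0539), Mrpl49 (−1.57, adjusted p = 0.0633) and Mrps14 (0.85, adjusted p = 0.0636), and those just inside were Mrpl45, Mrpl20 and Mrpl28. Of the 50-base stretches of Mrpl53, 82% occur in another gene, so its reads may not be its own.

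**Figure D2:**
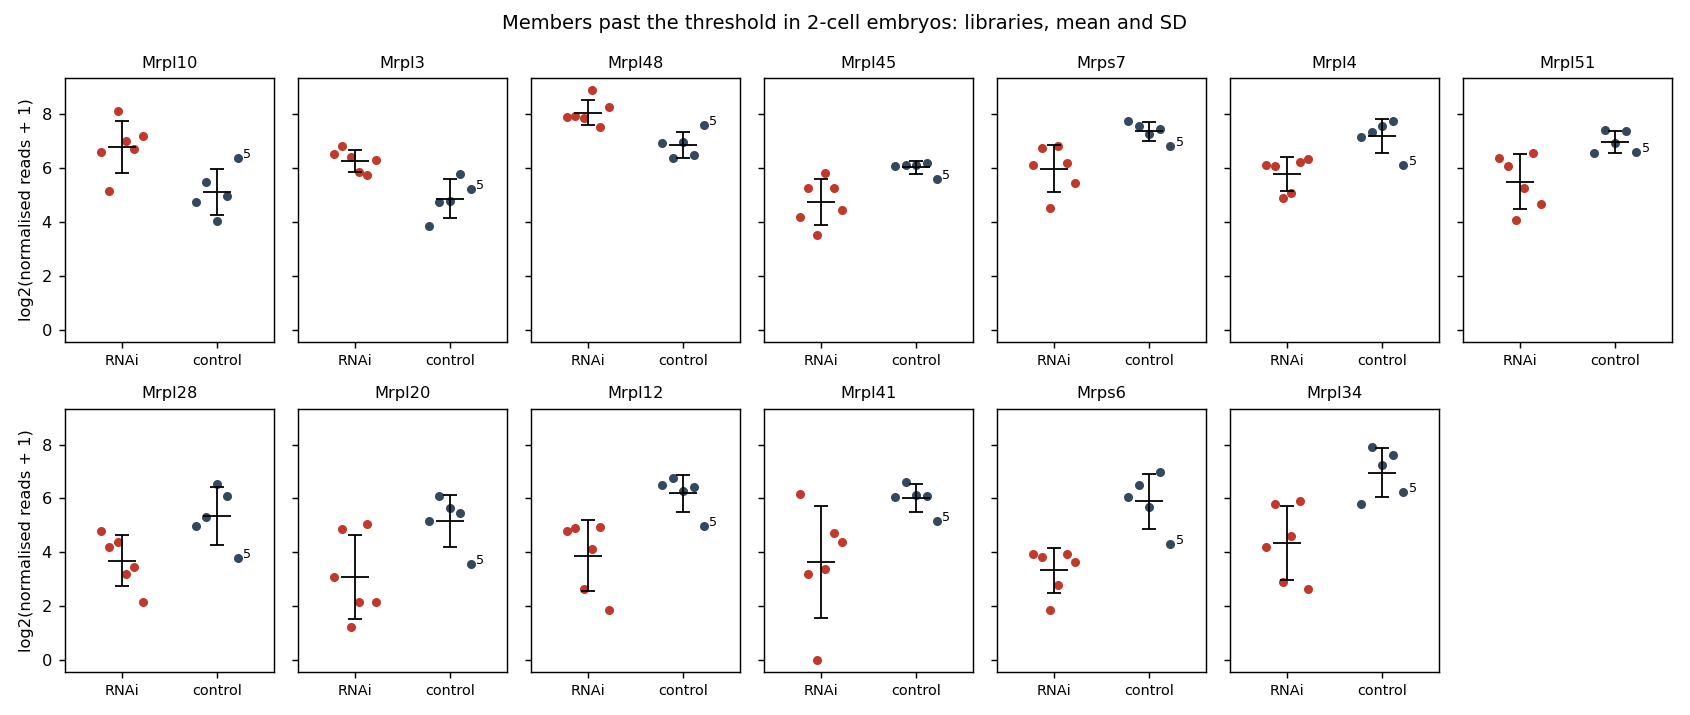
Log2(normalised reads + 1) in each embryo library for the 13 called members, RNAi libraries left and controls right, with the mean and SD of each group; control 5 is marked. Mrpl12 and Mrps6 are the members whose groups do not overlap, and control 5 is the lowest control in 8 of the 10 members called lower.

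A few libraries hold the ends of these ranges. Control 5 was the lowest control for 8 of the 10 members called lower and the highest for 2 of the 3 called higher, while RNAi 3 was the lowest RNAi library for 7 of the 10. Without control 5, 6 members were called higher and 13 lower, and without RNAi 2, 6 were called higher. Over the 16417 genes tested, 1303 were higher and 2275 lower without control 5, and 1128 were higher without RNAi 2. Members called lower numbered 6 without RNAi 6, 5 without control 2, 6 without control 3 and 4 without control 4. Over all genes tested, those lower numbered 1500, 1213, 1352 and 1247 in the same order. With all libraries, 1007 genes were higher and 1976 lower. Mrpl34, Mrps6, Mrpl12 and Mrpl3 passed the threshold under all 21 other settings tried, while Mrpl20 lost its call under 12 of them, Mrpl28 under 11, Mrpl41 under 8 and Mrpl51 under 5. Members called lower had a median level of 47.9 normalised reads per kb of exon in control embryos, against 7.73 for members without a call. Across the 78 members, the level per kb in controls and the log2 fold change had a Spearman rho of −0.41. The controls enter both measures, and the genes share libraries and depth, so this is a description.

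Some members were near the limit of detection in embryos. Mrps5 had 14 reads over all 6 RNAi libraries and 6 over all 5 controls, and Mrps31 had 20 in RNAi libraries and 7 in controls. Mrps12 had RNAi values of 2.61, 4.64 and 21.6 (lowest, median, highest), against 0, 1.48, 8.35, 2.34 and 0.978 in controls, and the groups overlap (1.30, adjusted p = 0.186). Differences in these 3 genes were not detectable at this depth. Mrpl57, a short protein of the large subunit, had 27.9, 34.9 and 50.9 in RNAi embryos, against 40.3, 64.2, 58.4, 79.6 and 19.6 in controls (−0.42, adjusted p = 0.48). Mrps18b had 12.3, 17.4 and 29.5 in RNAi embryos, against 15.9, 36.1, 26.4, 49.2 and 17.6 in controls (−0.54, adjusted p = 0.412). The groups overlap for both, and neither was called. Mrps22 had 2.32, 7.65 and 13.5 in RNAi embryos, against 14.3, 36.1, 11.1, 25.8 and 18.6 in controls (−1.33, adjusted p = 0.0799). Mrpl44 had 11.7, 15.4 and 32.6 in RNAi embryos, against 10.9, 15.5, 16.7, 15.2 and 11.7 in controls (0.36, adjusted p = 0.606). Here too the groups overlap. Mrps16, Mrps18c, Mrps34, Mrps35, Mrps18a and Mrpl58 also gave no call, with log2 fold changes from −0.97 (Mrps35) to 0.44 (Mrps18a).

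Across both comparisons, 39 of the 77 shared members had a log2 fold change above 0 in OE cells and below 0 in RNAi embryos, and 31 were above 0 in both. A further 4 were below 0 in both, and 3 were below 0 in OE cells and above 0 in RNAi embryos. Of the 13067 genes tested in both tables, 28.8% were above 0 in OE cells and below 0 in RNAi embryos, 22.4% above 0 in both, 23.9% below 0 in both, and 24.9% below 0 in OE cells and above 0 in RNAi embryos. With 70 of 77 members above 0 in OE cells, the first pair of counts holds nearly all of them. Over the 77 members the log2 fold changes had a Spearman rho of −0.11, near the −0.12 over those 13067 genes. Mrpl20 and Mrpl3 were the members called in both. By the ratio of mean normalised reads, Mrpl20 was 2.89-fold higher in OE cells and 3.21-fold lower in RNAi embryos. By the same ratio Mrpl3 was 2.21-fold higher in OE cells and 2.53-fold higher in RNAi embryos. These ratios differ from the log2 fold changes given above, which are differences of mean log2 values. Mrps31, lower in OE cells, had 0 to 6.18 normalised reads in RNAi embryos and 0 to 3.51 in controls, too few for a direction.

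**Figure D3:**
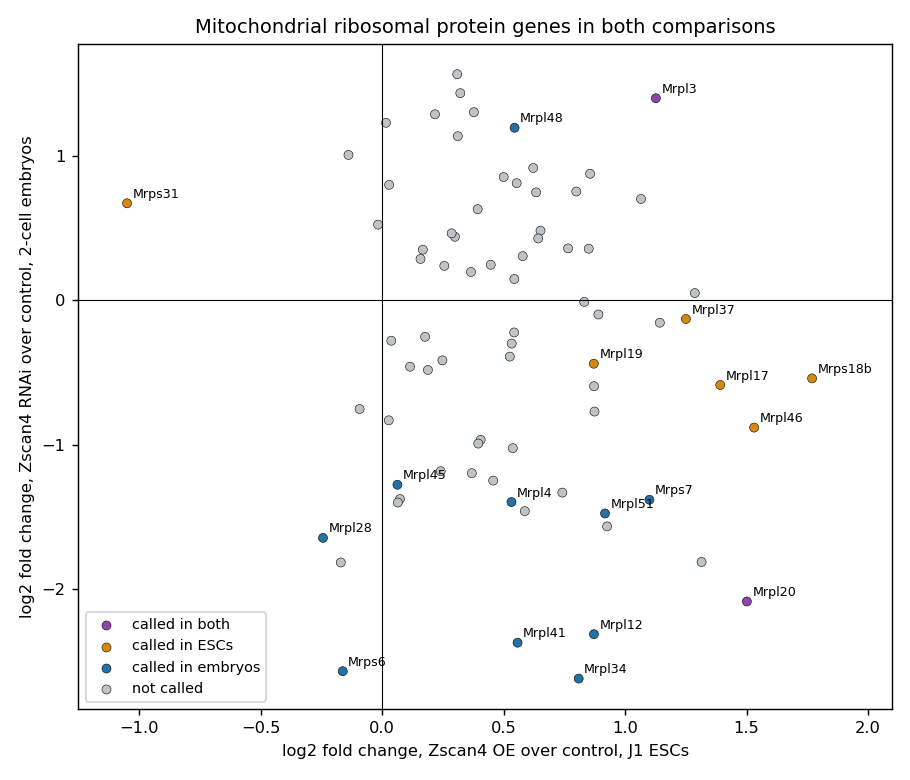
Log2 fold change in RNAi embryos (vertical) against that in OE cells (horizontal) for the 77 members of both tables, coloured by call. Mrpl20 lies at the lower right and Mrpl3 at the upper right.

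The level per kb of exon ranked the members differently in control ESCs and control embryos. In control ESCs it ran from 63.0 normalised reads per kb (Mrpl23) to 1396 (Mrpl18), with a median of 427. The next highest after Mrpl18, homologous to a bacterial protein that binds rRNA, were Mrpl12 with 1369 and Mrpl2, a protein next to the catalytic centre, with 1337. The next lowest after Mrpl23, homologous to a protein at the bacterial tunnel exit, were Mrpl33 with 64.9 and Mrpl48 with 77.2. The length used is that of all annotated exons of a gene merged, 7326 bases for Mrpl33 and 8152 for Mrpl48. Before division by length they had 476 and 630 normalised reads in control ESCs. Mrps21, the member with the fewest there, had 305, but 413 per kb. The order of members by level per kb is thus not their order by reads. In control embryos the level ran from 0.164 per kb (Mrps5) to 236 (Mrpl34), with a median of 11.4. Mrps7 with 81.2 and Mrpl41 with 75.1 followed Mrpl34, and Mrpl23 with 0.27 and Mrps31 with 0.407 stood next to Mrps5. Ranks in the 2 tables had a Spearman rho of 0.48 over the 77 members. Each table has its own normalisation, so no level is compared across them.

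**Figure D4:**
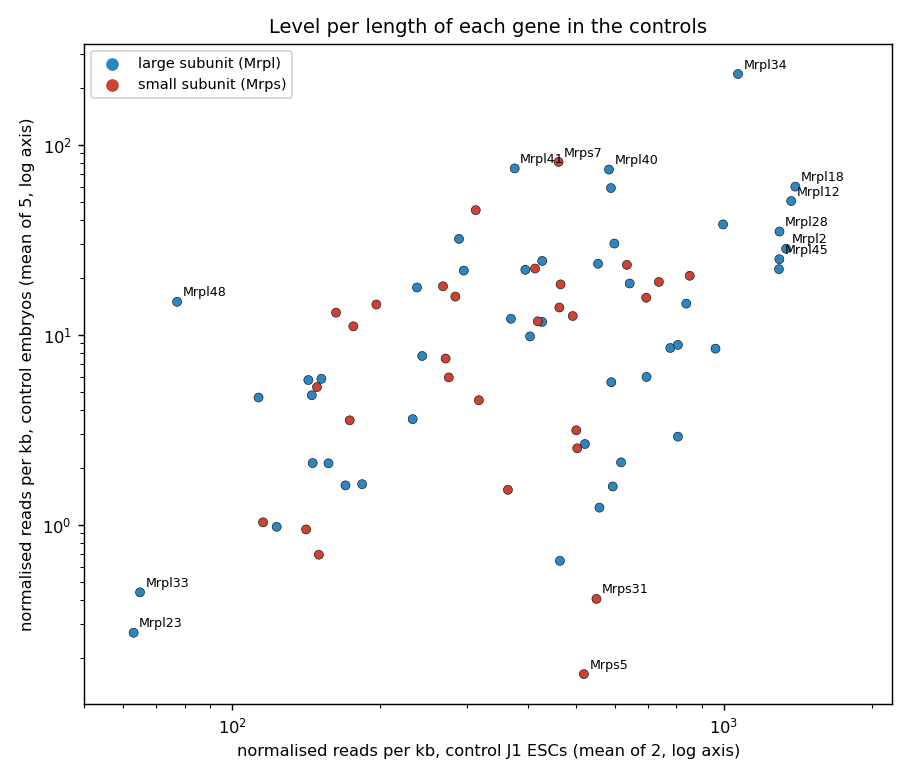
Normalised reads per kb of exon for each of the 77 members, in control embryos (vertical, mean of 5) against control ESCs (horizontal, mean of 2), both on log axes and coloured by subunit. Mrps5 and Mrps31 are low in embryos and intermediate in ESCs, and Mrpl34 is the highest in embryos.

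The genes of the cytosolic ribosome, the other protein-making machine of the cell, had a lower median log2 fold change in RNAi embryos than the members. Of 79 cytosolic ribosomal protein genes 60 fell in RNAi embryos and 0 rose, where 12% of all genes tested fell and 6.13% rose. Their median log2 fold change was −2.07, against −0.19 for members. The mean log2 level of members was 3.51 to 4.23 in RNAi libraries and 3.97 to 4.59 in controls, ranges that overlap. That of the cytosolic set was 3.63 to 6.02 in RNAi libraries and 5.60 to 7.31 in controls, where control 5 was the lowest. The difference, members minus cytosolic, was −1.96 to 0.08 in RNAi libraries and −2.92 to −1.63 in controls, with control 5 alone of the controls inside the RNAi range. In ESCs it was −3.53 and −3.69 in OE libraries and −4.14 and −4.13 in controls. The difference between the sets was not tested. Maternal markers, a list of 10 oocyte transcripts, also moved with the groups, with summed levels of 29563 to 43295 normalised reads in RNAi libraries and 6730 to 12456 in controls. Of these 10 genes 3 rose in RNAi embryos and 0 fell. Their part in the members' values was not tested.

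**Figure D5:**
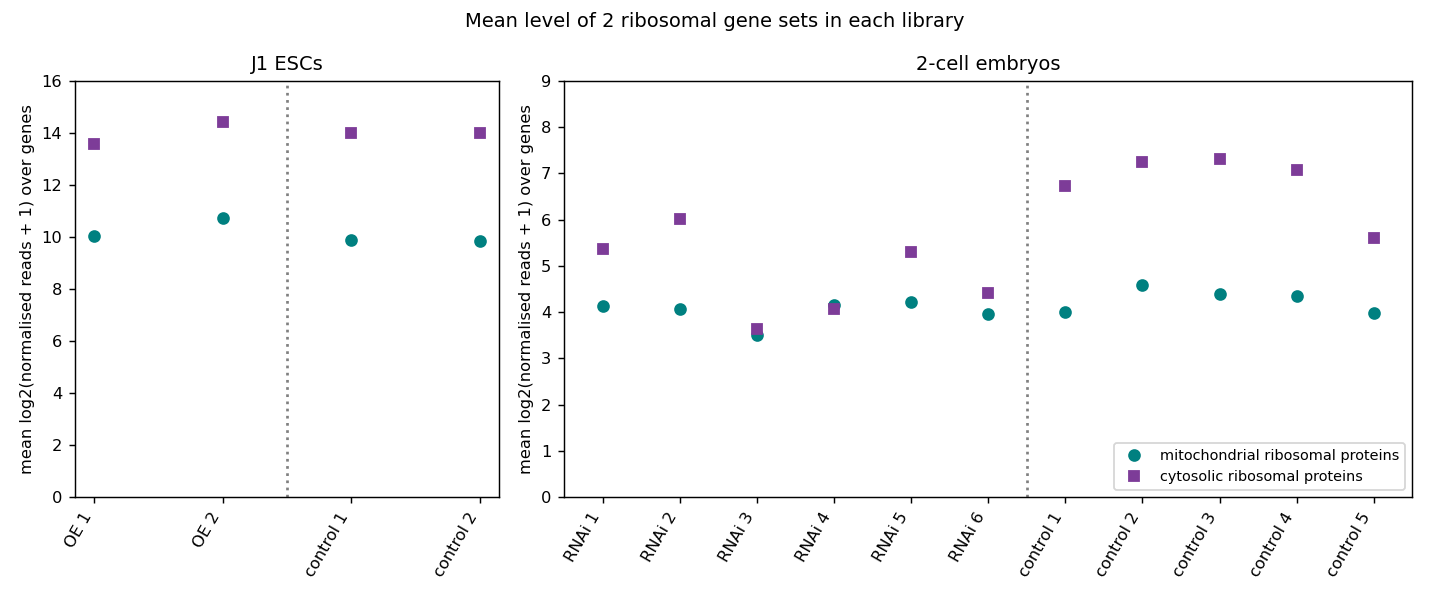
Mean log2(normalised reads + 1) over the members (circles) and over cytosolic ribosomal protein genes (squares) in each library, with OE or RNAi libraries left of the dotted line and controls right of it. In embryos the circles lie between 3.51 and 4.59, and the squares between 3.63 and 6.02 in RNAi libraries and between 5.60 and 7.31 in controls.

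Other mitoribosomal genes and their partners were read from lists. Beside the counts of every list stand the shares of all genes tested: 11.7% rose and 11.4% fell in OE cells. In RNAi embryos 6.13% rose and 12% fell. Among 5 ribosomal proteins named outside the Mrp series, Ptcd3, a small-subunit protein with RNA-binding repeats, rose in OE cells, with 4406 and 3976 normalised reads in OE libraries, against 1892 and 1987 in controls (1.11, SE 0.16, adjusted p = 0.0205). Aurkaip1, of the small subunit, fell in RNAi embryos, with 2.32 to 37.9 in RNAi libraries, against 50.8 to 114 in controls (−2.22, SE 0.54, adjusted p = 0.00984). Of 30 genes listed for assembly and rRNA modification 7 rose and 1 fell in OE cells, with a median log2 fold change of 0.41. Fastkd5, an RNA-binding protein of mitochondrial RNA granules, had 789 and 891 in OE libraries, against 129 and 155 in controls (2.56, SE 0.21, adjusted p = 0.0119). Mtg2, a GTPase of large-subunit assembly, had 366 and 578 in OE libraries, against 120.0 and 91.7 in controls (2.12, SE 0.33, adjusted p = 0.0232). In RNAi embryos 2 of 27 of these genes rose and 4 fell, with a median of −0.33. Nsun4, an rRNA methyltransferase that also works in ribosome assembly, was called higher in both comparisons. It had 328 and 439 in OE libraries, against 177 and 173 in control ESCs (1.11, adjusted p = 0.0415), and 453 to 1021 in RNAi embryos, against 192 to 526 in controls (1.40, adjusted p = 0.00583).

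Of 14 translation factors 1 rose and 1 fell in OE cells, and of 14 tested in embryos 2 rose and 1 fell. Guf1, which resembles the bacterial elongation factor LepA, fell in OE cells, with 415 and 294 in OE libraries, against 1037 and 977 in controls (−1.52, adjusted p = 0.0234). It rose in RNAi embryos, with 23.2 to 135 in RNAi libraries, against 11.7 to 27.8 in controls (1.52, adjusted p = 0.0251). Of the mitochondrial aminoacyl-tRNA synthetases 2 of 22 rose and 1 fell in OE cells, and 1 of 19 rose and 2 fell in RNAi embryos. Ears2, the glutamyl-tRNA synthetase, rose in OE cells (0.85, adjusted p = 0.0427) and fell in RNAi embryos (−2.35, adjusted p = 0.0298). In transcription and RNA processing, 3 of 18 rose in OE cells, and 1 rose and 3 fell of 18 in RNAi embryos. Polrmt, the mitochondrial RNA polymerase, had 0 to 8.20 in RNAi embryos, against 16.6 to 37.6 in controls (−3.17, SE 0.64, adjusted p = 0.00419).

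Of 15 mitochondrially encoded genes, which include the transcripts that the mitochondrial ribosome translates, 8 messenger RNAs rose in OE cells, where 11.7% of all genes rose, and the large-subunit rRNA mt-Rnr2 fell. The median log2 fold change was 1.10, and 10 of 15 were above 0. The one with the most reads, mt-Co1, for a subunit of complex IV, was not called and had 233051 and 263312 normalised reads in OE libraries, against 402017 and 394326 in controls (−0.68, adjusted p = 0.118). The 15 together made up 2.39% and 3.14% of normalised reads in OE libraries, and 2.35% in each control. The mt-Nd1 transcript, for a subunit of complex I, had 77536 and 130539 normalised reads in OE libraries, against 22867 and 22753 in controls (2.14, adjusted p = 0.0213). The mt-Rnr2 transcript had 3022 and 2469 in OE libraries, against 4595 and 4607 in controls (−0.75, adjusted p = 0.048). In RNAi embryos limma called 0 of these 15, with 1 at an unadjusted p under 0.05 and a median of 0.12, and edgeR, DESeq2 and voom each called 1.

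Of 10 tested regulators of nuclear genes for mitochondria, Myc, which binds E-boxes, was 26.3-fold higher in OE cells, with 1289 and 1664 in OE libraries, against 62.9 and 49.6 in controls (4.69, adjusted p = 0.0112). Mycn also rose there, and Ppargc1b, a coactivator, fell. In RNAi embryos Gabpa, the DNA-binding subunit of the ETS factor GABP, fell, with 11.6 to 186 in RNAi libraries, against 109 to 622 in controls (−2.80, SE 0.57, adjusted p = 0.00419). The groups overlap through control 5. Pprc1, a coactivator, and Yy1 fell as well. Of 12 markers of mitochondrial content, Tomm40 rose and Vdac1 fell in OE cells, and Tomm20 and Tomm22 fell in RNAi embryos, all genes of the outer membrane.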

How the data were processed

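The authors deposited 1 table for the ESC libraries and 1 for the embryo libraries, whose signal values are reads divided by a size factor per library. The tools named per the submitters' processing notes are Trimmomatic, HISAT2, featureCounts and mm10, without versions; neither the labels nor the headers state the strand setting or where the size factors come from. The deposited signal values came out as whole reads (within 0.01 read) after multiplying by 1 factor per library, and these reads gave the depths and the count tests used as alternatives. The labels name the library source as genomic and a DNA library kit, while the titles say RNA-Seq.

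Each table was fitted alone with limma 3.58.1 in R 4.3.3 (trend, no covariates) on log2(value + 1), so folds of low genes are understated. Genes needed a value of 1 in at least 2 ESC or 5 embryo libraries, and p-values were adjusted by Benjamini-Hochberg over all genes tested, with a threshold of 0.05. The fit was tested on simulated data. Alternatives were pseudocounts 0.5 and 5, other filters, quantile and TMM scaling, limma without trend, edgeR 4.0.16, DESeq2 1.42.0, voom weights, a replicate block, and leaving out each library. Summaries used Python 3.11.15, pandas 2.3.3 and scipy 1.17.1.

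Columns of the RNAi group carry their labels' numbers; the embryo control columns are numbered 1 to 5 where the labels run otherwise, so they were placed by group and their numbers only name libraries. Members, gene lists and motifs were chosen with earlier results of these data known. Named in each comparison were up to 8 called members in each direction, members called in both, the 3 highest and 3 lowest levels per kb in controls, and landmarks of each subunit. Promoter sequences come from RefSeq (GRCm38.p6) and positions of genes from the mm10 annotation. Proteins were not used here.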

Additional observations from a re-analysis of the deposited data

Results flagged for a closer look

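In 60 groups of 4 to 10 values checked, 7 held a library far from the rest. Chance alone would give about 1 in 20 groups if the groups were independent and their values not skewed. These groups share libraries and some hold few reads, so the 7 were not weighed against chance. Of single members, Mrpl41 was far higher in RNAi 1 (71.4 normalised reads) than in the other RNAi libraries, and Mrps12 in RNAi 5 (21.6). Mrps12 was also far higher in control 3 (8.35 normalised reads) than in the other controls. Mrps18a stood apart in RNAi 4 (22.1) and Mrps35 in RNAi 6 (16.5), each the highest of the 6 RNAi values. RNAi 3 had by far the lowest mean log2 level of the members among RNAi libraries (3.51), and likewise of the small-subunit members (3.33). Among RNAi libraries it also had the lowest mean over all genes tested (3.47) and the fewest reads assigned to genes (839340). Mrpl41 is the one of these genes that was called, and its log2 fold change without RNAi 1 was −2.88 (limma adjusted p = 0.00981).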

How the results depend on the processing

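Of the values recomputed under other settings for the members named by the rule, 881 kept their direction and side of the threshold. Of the other values 77 lost a call, 39 gained one and 26 changed sign, all 26 in members without a call. A call can be lost only by a called member, and the 881 include values of members without a call. In ESCs the members called higher numbered 3 with quantile normalisation, 2 without trend, 20 with DESeq2, 11 with voom weights, 13 with the replicate block and 0 with the spread of the OE libraries alone. Over the 20888 genes tested, those called higher numbered 2141, 2009, 2887, 2050, 2943 and 0 in the same order, against 2453 in the main fit. Members called lower numbered 0 without trend and 0 with that spread, where 2136 and 0 of all genes were lower. Leaving out 1 library gave 0 to 65 higher, 0 to 13 lower and a median log2 fold change of 0.13 to 0.77; a lone library is then assumed to vary like the other group. Over all genes tested, calls in both directions grew in number without an OE library and vanished without a control library. The median log2 fold change of all genes was −0.028 to 0.020 in these fits. Each of them leaves 1 library in a group, so no conclusion is drawn from their counts. In embryos the members called higher numbered 6 among members with a mean of at least 10, 8 with quantile normalisation and 6 with TMM. They numbered 1 without trend, 5 with DESeq2 and 9 with voom weights. Over all genes, these settings called 1027 of 9275, then 1396, 1190, 672, 1269 and 1594 of 16417 higher. Members called lower numbered 4 without trend and 6 with edgeR, where 1571 and 1244 of all genes were lower. Leaving out 1 embryo library gave 3 to 6 members higher and 4 to 13 lower, where 508 to 1303 of all genes were higher and 1213 to 2275 lower. Quantile normalisation moved the median of all embryo genes to 0.14, against −0.03 before, and edgeR moved it to 0.09; the members' medians were then 0.04 and −0.12.

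Leaving out 1 library turned the sign of the log2 fold change for 25 of 77 members in ESCs and 11 of 78 in embryos, none of them called (0 in each table). Among the members named by the rule, leaving out 1 ESC library did so for Mrpl2 (−0.25 to 0.57), Mrpl23 (−0.34 to 0.40), Mrpl28 (−0.71 to 0.22), Mrpl33 (−0.34 to 0.49), Mrpl48 (−0.0039 to 1.09), Mrpl53 (−0.20 to 0.63), Mrpl57 (−0.25 to 0.75), Mrps12 (−0.066 to 0.82), Mrps16 (−0.20 to 0.58) and Mrps18a (−0.10 to 0.69). Among named members in embryos it did so for Mrpl58 (−0.048 to 0.96), Mrps18a (−0.038 to 0.91), Mrps34 (−0.26 to 0.35) and Mrps18c (−0.52 to 0.28). Mrps18c was also above 0 with quantile normalisation (0.065), edgeR (0.27), DESeq2 (0.16) and voom weights (0.10). The cause of these changes was not tested.

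In ESCs the deviations of same-numbered libraries had a correlation of −0.01 over genes. This is a single value from controls that hardly differ, so it cannot show whether the replicate numbers pair the libraries. The replicate block gave 13 members higher and 1 lower, and 2943 of all genes higher and 3081 lower. In embryos no paired analysis was run, since the labels state no pairing and the groups hold 6 and 5 libraries. The embryo control columns also carry other numbers than the labels. Depth limits the embryo values: a member drew a median of 117.5 reads over the 5 controls, and as few as 6.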

Other observations

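Genes of other cell types gave these values. Of the 5 tested fibroblast or feeder markers, Col3a1 and Col1a2 rose and Pdgfrb and Thy1 fell in OE cells, with a summed level over all 7 listed of 541 to 658 normalised reads in OE libraries and 969 to 987 in controls. Of 8 tested maternal markers 2 rose in OE cells, Zp3 and Bmp15, with sums over all 10 listed of 846 to 1208 in OE libraries and 525 to 557 in controls. Of 9 cumulus markers 1 fell in OE cells, Inha, and in embryos Amhr2 was the 1 of 2 tested that fell in RNAi libraries. Of 11 tested 2-cell markers, a list that includes Zscan4 genes, 5 fell in RNAi embryos, and of 8 ESC markers 1 fell, Dppa5a.

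On chromosome 11, the 11 members in embryos had a median log2 fold change of −0.75 in RNAi libraries, with 1 called higher and 3 lower, against −0.13 for the 67 on other chromosomes. Among those 67 members 2 were called higher and 7 lower. Over all genes tested in embryos the medians were −0.31 for the 1201 on chromosome 11 and −0.0050 for the others. Of the 1201 genes 55 were called higher and 211 lower, and of the 15216 others 952 and 1765.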
